A study of Ursus arctos with 5 samples.

Results

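The transcripts described here code for laminins, integrins, sarcoglycans and other glycoproteins that join a muscle fibre to its surrounding matrix, in the gastrocnemius, a calf muscle, of captive grizzly bears (Ursus arctos). Members were chosen by gene symbol from a pattern that covers laminin and integrin chains, nidogens, perlecan, fibronectin, fibrillins, elastin, the SPARC, tenascin X, tenascin C and thrombospondin genes, sarcoglycans, dystroglycan, dystrophin, utrophin and their partners. The pattern matched 92 of the 26614 deposited transcripts, all among the 9093 with a gene name, and these belong to 28 of 4873 named genes. Muscle of 2 bears, a subadult and an adult by the study's methods, was sampled in October, when they were active, and in February, when they were hibernating without food, which gave 4 libraries, 1 per bear and state. Neither group had a test compound, transgene or genetic change. By the study's methods biopsies were taken under tiletamine, zolazepam and isoflurane, with less of the injected anaesthetic in hibernation, so that month, feeding, anaesthetic dose and hibernation cannot be told apart. In the labels both bears of a state share a single sample and all carry an age of 10 years, so the age class of each library was taken from the study's supplementary table, which held the same 4 values for 92 of 92 members.

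Laminins assemble into the sheet-like basement membrane that wraps each muscle fibre, where perlecan links them to other components. Integrins and dystroglycan are the receptors that hold laminin at the fibre surface, dystroglycan as part of the dystrophin complex with the sarcoglycans, and loss of several of these proteins causes muscular dystrophy. Fibronectin, fibrillin, elastin and tenascin X belong to the interstitial matrix between fibres and are made mainly by fibroblasts and other non-muscle cells, while SPARC and the thrombospondins are secreted proteins that modulate how cells and matrix interact.

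Many relatives of these genes were not analysed here. Of 66 symbols of protein-coding bear genes in RefSeq (assembly UrsArc2.0) that match the pattern, 27 had a listed transcript, and ITGB7 was listed without a symbol there. Dystrophin (DMD), the integrin β1 chain (ITGB1), the muscle laminin chains LAMA2, LAMB1 and LAMC1, both nidogens, β-sarcoglycan (SGCB) and tenascin C (TNC) are among those not analysed. Every listed value is at least 1 RPKM in each library, where RPKM is reads per kilobase of transcript, scaled to the aligned reads of the library (M, mega reads).

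Reads were recovered from the steps of low RPKM values and correspond to 44.7 to 54.2 M aligned reads per library. The members took 0.221% of them in the hibernating subadult, 0.315% in the active subadult, 0.201% in the hibernating adult and 0.181% in the active adult. The fewest reads behind any member value were 25. Skeletal muscle was checked by its markers: 5 of 10 listed markers were measured, and the myosin heavy chain genes MYH1, MYH2 and MYH7 stood between 1295 and 7801 RPKM in every library. Of these 5 markers 1 was higher and 4 were lower in hibernation in both bears, beside 48.7% and 16.1% of all named genes. TTN was called lower by the score defined below, at 794 and 700 RPKM in the active and hibernating subadult and 598 and 155 in the adult. These values are of 1 of 17 TTN transcripts, of 2600 bases, and hold for it alone. Its score was 0.801, and the call rests mostly on the adult (3.86-fold lower, against 1.14-fold in the subadult). In bulk muscle, fewer cells of a type and less RNA per cell cannot be told apart. Where a gene has several assembled transcripts, the one with the most reads stands for the gene, and its overlapping transcripts may share reads and are not independent.

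As a group, the 28 genes had no common direction. In hibernation 11 genes (39.3%) were higher in both bears, against 48.7% of all named genes, 5 (17.9%) were lower in both bears, against 16.1%, and 12 differed in direction between the bears. On the log2(RPKM + 0.5) scale used for all changes below, hibernating minus active, their median change was 0.09 (subadult) and 0.28 (adult), beside 0.13 and 0.17 over all named genes. Both hibernating libraries were above both active ones for 8 genes (28.6%; 35.8% of all genes) and below them for 3 genes (10.7%; 8.11% of all genes). With no filter on level, the shares by direction were thus near those of all genes. Median-ratio scaling of the libraries, which lowers changes of the subadult by 0.11 and those of the adult by 0.22, left 8 genes higher and 7 lower in both bears, beside 30.4% and 31.2% of all genes; LAMA5, SGCD and UTRN were no longer higher in both.

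No member passed limma's test at an adjusted p of 0.05 (adjusted p 0.541 to 0.9996), nor did any of the 9093 annotated transcripts; 13 of the 92 members had an unadjusted p under 0.05 (9.08% of all annotated transcripts did), and 18 with the animal as a replicate block (13.5% of all). With 2 libraries against 2, the smallest two-sided p of an exact permutation test is 0.333. Calls were therefore made by a score modelled on NOISeq, the method of the study. The score of a transcript tells how often differences seen among bears of the same state were smaller than its change between states, in ratio as well as in size, and a transcript was called at 0.8 or more. Of the 92 members 6 reached 0.8, beside 3.61% of all annotated transcripts. ITGA7, SGCA and a short LAMB2 transcript were higher in hibernation, and FBN1, SPARC and TNXB lower. By the standing transcript this made 2 of 28 genes called higher, beside 2.46% of all genes, and 3 of 28 called lower, beside 1.52%. After median-ratio scaling, 8 members were called, 2 higher and 6 lower, beside 3.57% of all annotated transcripts: SGCA was lost, and HSPG2 and 2 further TNXB transcripts were added to the lower calls.

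**Figure D1:**
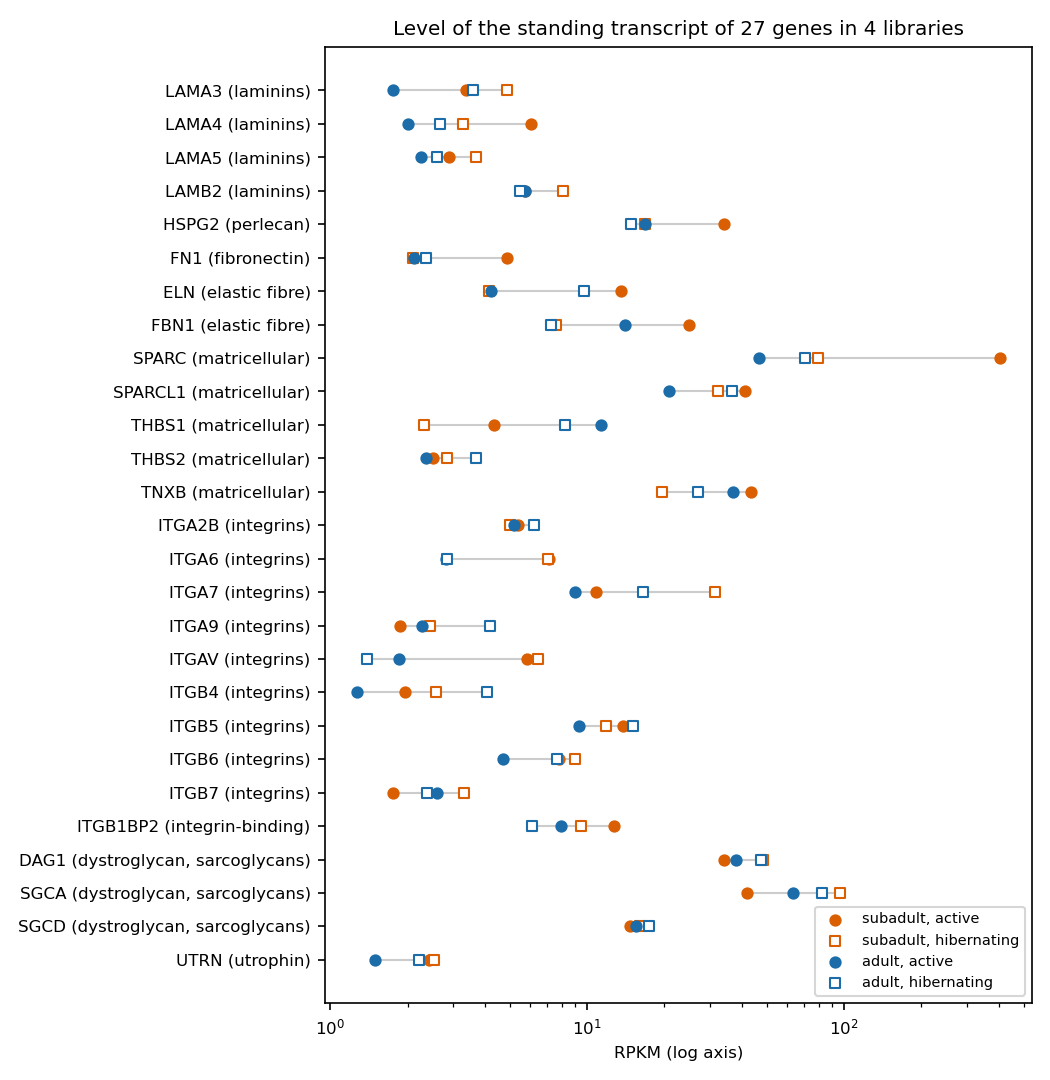
RPKM (log axis) of the standing transcript of 27 genes in the 4 libraries; orange marks the subadult, blue the adult, filled circles the active and open squares the hibernating library. SPARC reaches 404 RPKM in the active subadult and lies between 46.7 and 79.5 in the other libraries, and ITGA7 and SGCA have both open squares to the right of both filled circles.

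The summed level of the secreted matrix genes was highest in the active subadult, but their directions were mixed. Of 13 such genes 3 (23.1%) were higher and 4 (30.8%) lower in both bears, beside 48.7% and 16.1% of all named genes. The other 6 (46.2%) differed in direction between the bears, as 35.2% of all named genes did. The 13 genes for laminins, perlecan, fibronectin, elastic fibre and matricellular proteins summed to 591 RPKM in the active subadult and to 167 to 194 RPKM in the other libraries. SPARC alone made up 404 of the 591. The median change of the 13 was -0.79 for the subadult but 0.17 for the adult. Of the 13 genes 8 had their highest value in the active subadult library, where 20.3% of all named genes did. In the subadult, 6 of the 28 genes were at least 2-fold lower in hibernation, compared with 2.89% of all genes, and all 6 were matrix genes (SPARC, FBN1, ELN, TNXB, FN1 and HSPG2). In the adult 0 of 28 were, compared with 0.718% of all genes. Between the active libraries the median of the 13 genes was 0.80 higher in the subadult than in the adult, and between the hibernating libraries 0.06 higher.

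FBN1 was the matrix gene that was lower in both bears with the highest score. It encodes fibrillin-1, the main protein of the microfibrils on which elastic fibres are built. Its transcript isotig15309, of 8136 bases, stood at 24.9 RPKM in the active and 7.58 in the hibernating subadult, and at 14.1 in the active and 7.27 in the hibernating adult. The bears were close to each other in hibernation and apart when active, and the groups did not overlap. The level was 3.29-fold lower in the hibernating subadult and 1.94-fold lower in the hibernating adult, with a mean log2 change of -1.28 ± 0.31 (SE), a score of 0.930 and an adjusted p of 0.541 in limma's test. Elastin itself (ELN, 1 transcript) went opposite ways: it stood at 13.6 RPKM in the active and 4.17 in the hibernating subadult, and at 4.23 and 9.72 in the adult, with a score of 0.479.

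SPARC, a collagen-binding protein secreted during matrix assembly, had the highest mean level of the members, which the active subadult carried, since SGCA was above it in the other libraries. It stood at 404 RPKM in the active and 79.5 in the hibernating subadult, and at 46.7 in the active and 70.2 in the hibernating adult. A single library, the active subadult, was high, and the other libraries lay within a narrow range. The subadult was 5.09-fold lower in hibernation while the adult was higher, so that the score of 0.980 rests on the subadult: the mean log2 change was -0.88 ± 0.93 (SE), and 0.58 without the subadult. Its relative SPARCL1 (hevin), an anti-adhesive matrix protein, had 41.1 and 32.3 RPKM in the active and hibernating subadult and 20.8 and 36.7 in the adult, again in opposite directions.

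Tenascin X (TNXB), a large glycoprotein that bridges collagen fibrils, was lower in hibernation in 6 of its 7 transcripts in both bears. Transcript isotig13286, of 738 bases, stood at 43.6 RPKM in the active and 19.6 in the hibernating subadult, and at 37.1 in the active and 27.1 in the hibernating adult. Both active libraries were above both hibernating ones. The mean log2 change was -0.79 ± 0.25 (SE) with a score of 0.812. Changes of the other 5 transcripts that were lower ran from -1.10 to -0.80 (subadult) and from -0.75 to -0.45 (adult). The remaining one, isotig18372, went the other way, with 3.16 RPKM in the active and 5.45 in the hibernating subadult, and 3.57 and 3.68 in the adult. In humans this gene has a near-identical partial copy. Whether bears have one was not analysed here, so the assignment of its reads is uncertain.

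Perlecan and fibronectin were lower in hibernation in the subadult and nearly level in the adult. HSPG2 encodes perlecan, a heparan sulphate proteoglycan of basement membranes. Its transcript isotig15765 stood at 34.0 RPKM in the active and 16.7 in the hibernating subadult, and at 16.8 in the active and 14.8 in the hibernating adult, with a mean log2 change of -0.59 ± 0.36 (SE) and a score of 0.761. Its 5 transcripts differed by -1.003 to -0.78 (subadult) and by -0.41 to 0.01 (adult). Fibronectin (FN1), the adhesive glycoprotein read by several integrins, had 4.88 RPKM in the active and 2.10 in the hibernating subadult, and 2.12 and 2.37 in the adult. Its 11 transcripts, of 6736 to 8100 bases, lay close together, at -1.05 to -0.89 (subadult) and -0.05 to 0.13 (adult), and none was called.

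THBS1, an activator of latent TGF-β, marked the bear more than the state. It had 4.36 RPKM in the active and 2.31 in the hibernating subadult, and 11.4 and 8.21 in the adult. Hibernation was lower in both bears, with a score of 0.641, but each adult library was above each subadult library. THBS2 had 2.35 to 3.69 RPKM in the 4 libraries and was 0.15 and 0.55 higher in hibernation in the subadult and the adult. Bears were at least 2-fold apart in the same direction in both states for 3 of the 28 genes, compared with 0.964% of all genes: besides THBS1 these were ITGA6, at 7.10 and 7.05 RPKM in the active and hibernating subadult and 2.83 and 2.86 in the adult, and ITGAV, at 5.82 and 6.42 in the subadult and 1.85 and 1.39 in the adult. ITGA6 and ITGAV code for the α6 and αV integrin chains, which bind laminin and RGD-containing matrix proteins, respectively, and both were higher in the subadult. ITGAV rests on 71 to 303 reads per library.

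**Figure D2:**
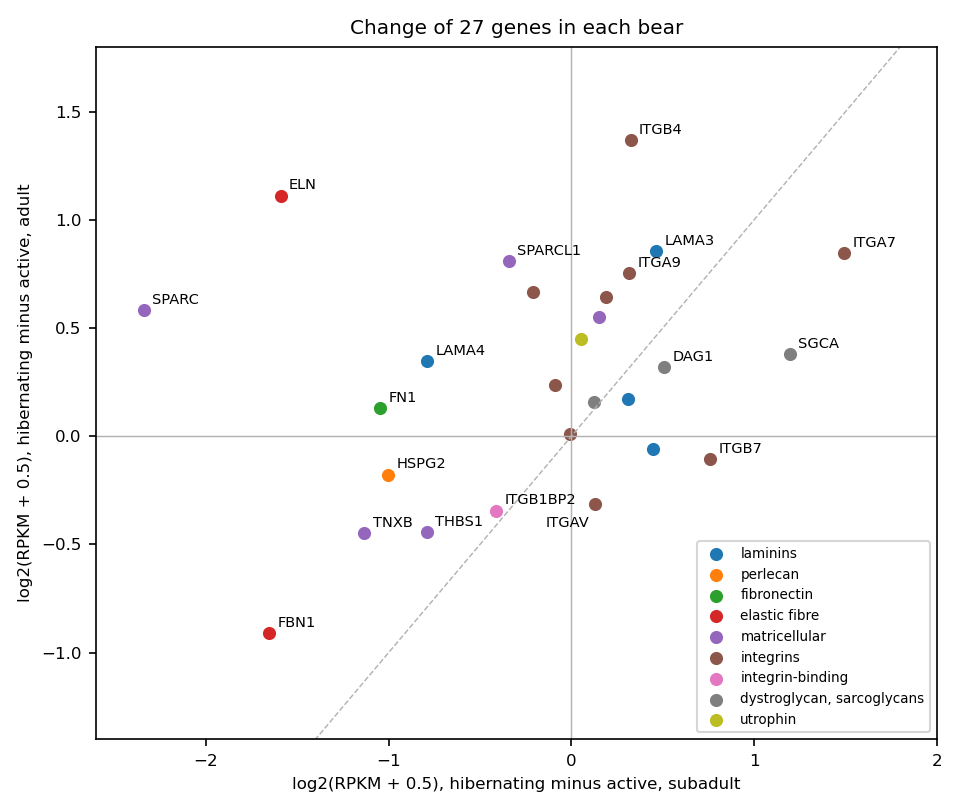
Change of 27 genes in log2(RPKM + 0.5), hibernating minus active, in the subadult (horizontal) and in the adult (vertical), coloured by role, with selected genes named; the dashed line marks equal change. FBN1, TNXB, THBS1, HSPG2 and ITGB1BP2 lie in the lower left, ITGA7 and SGCA to the upper right, and SPARC and ELN in the upper left, with opposite changes in the bears.

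The laminin chains were measured at low levels, and none of their standing transcripts was called. The β2 chain gene LAMB2, which encodes a laminin subunit of the neuromuscular junction, had the highest mean level, with 5.76 and 8.04 RPKM in the active and hibernating subadult and 5.72 and 5.46 in the adult, although LAMA4 was above it in the active subadult. LAMA3 had 3.39 and 4.86 in the subadult and 1.76 and 3.60 in the adult. LAMA5 had 2.89 and 3.70 in the subadult and 2.25 and 2.60 in the adult. By the standing transcript both genes were higher in hibernation in both bears. However, 3 of the 4 LAMA5 transcripts differed in direction between the bears. Changes of the 4 ran from -0.52 to 0.31 (subadult) and from -0.06 to 0.22 (adult). LAMA3, a 534-base fragment, rests on 42 to 130 reads per library. LAMA4, a chain of endothelial basement membranes, had 6.07 and 3.30 in the subadult and 2.00 and 2.69 in the adult. Its 4 transcripts were all lower in the subadult, with changes of -0.80 to -0.69, and in the adult 2 were higher and 2 lower.

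A short LAMB2 transcript had larger changes than the others of its gene. Transcript isotig41590, of 482 bases, had 2.61 RPKM (66 reads) in the active and 12.1 RPKM (292 reads) in the hibernating subadult, and 2.65 RPKM (57 reads) and 5.59 RPKM (146 reads) in the adult, with a score of 0.910. Both hibernating libraries were above both active ones. The 4 long transcripts, of 2874 to 3267 bases, differed by 0.27 to 0.45 (subadult) and by -0.19 to -0.06 (adult). Another short transcript, isotig44138 of 427 bases, rests on 29 to 63 reads per library and had changes of 0.015 (subadult) and 0.67 (adult). Which parts of the gene the short transcripts cover was not analysed here.

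At the fibre surface the integrin α7 chain (ITGA7), the main laminin-binding integrin chain of mature muscle fibres, was higher in hibernation. Transcript isotig05586, of 1595 bases, stood at 10.9 RPKM in the active and 31.5 in the hibernating subadult, and at 8.94 in the active and 16.5 in the hibernating adult. The active libraries were close to each other and below both hibernating ones. The level was 2.90-fold higher in the hibernating subadult and 1.84-fold higher in the hibernating adult, with a mean log2 change of 1.17 ± 0.34 (SE), a score of 0.922 and an adjusted p of 0.541 in limma's test. This transcript had the largest change of the gene, and over all ITGA7 transcripts the mean log2 change was 0.46.

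ITGA7 was assembled into 17 transcripts in 2 runs of neighbouring numbers, and the levels of the runs are given apart, with no test of their difference. In the run from isotig05576 to isotig05593, 10 of 10 transcripts were higher in both bears, by 0.61 to 1.49 in the subadult and by 0.18 to 0.85 in the adult. In the run from isotig08426 to isotig08432, all 7 were higher in the subadult, by 0.10 to 0.71, while in the adult the change lay between -0.10 and 0.10. ITGA7 is known to be spliced into forms with different extracellular and cytoplasmic segments, and which of these the runs represent was not analysed here.

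**Figure D3:**
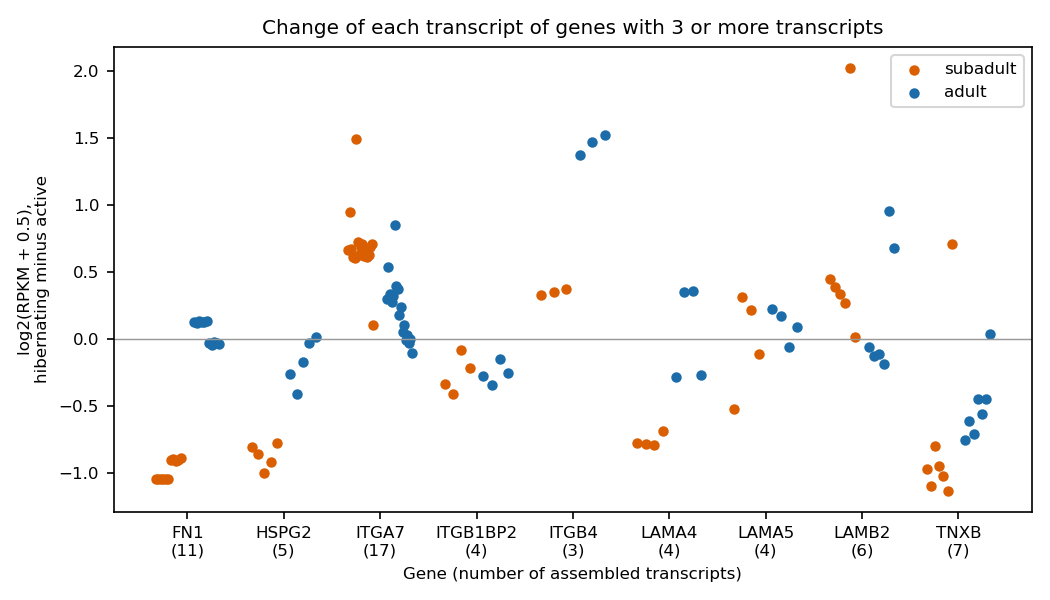
Change in log2(RPKM + 0.5), hibernating minus active, of the assembled transcripts of 9 genes with 3 or more transcripts, in the subadult (orange) and the adult (blue), with the number of transcripts under each gene. FN1 transcripts lie close together, whereas 1 transcript each of ITGA7 (1.49), LAMB2 (2.02) and TNXB (0.70) lies apart from the rest of its gene in the subadult.

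Among the 8 other integrin chains 3 were higher in hibernation in both bears, and none was called. ITGB4, the partner of α6 in hemidesmosomes, had 1.95 and 2.57 RPKM in the active and hibernating subadult and 1.28 and 4.09 in the adult, and its 3 transcripts were higher by 0.32 to 0.37 in the subadult and by 1.37 to 1.52 in the adult. The mean log2 change of its standing transcript was 0.85 ± 0.29 (SE), with a score of 0.685. ITGA9 was also higher in both bears, at 1.87 RPKM active and 2.46 hibernating in the subadult and at 2.29 and 4.20 in the adult. The same held for ITGB6, at 7.81 active and 8.99 hibernating in the subadult and 4.72 and 7.66 in the adult. ITGB5 was the most abundant β chain, at 13.8 and 11.9 RPKM in the subadult and 9.29 and 15.0 in the adult. Together with ITGB5, the genes ITGA2B, ITGA6, ITGAV and ITGB7 had opposite signs in the bears. The 2 ITGB7 transcripts opposed each other, with changes of 0.76 and -0.76 in the subadult. The standing ITGA6 transcript was level, with changes of -0.008 (subadult) and 0.013 (adult). Its other transcript, isotig33115, was lower in both bears, by -0.26 and -0.83. The hibernating adult library, where ITGA9, ITGB4 and ITGB5 were highest, also held the highest summed level of smooth muscle and pericyte markers (3 of 9 measured), at 94.8 RPKM against 55.3 to 76.6 elsewhere. This rested on MYH11, the smooth muscle myosin, at 27.6 RPKM there against 5.44 to 7.02, while NOTCH3 was highest in the hibernating subadult (61.0 against 55.2 in the hibernating adult) and RGS5 in the active subadult (15.4 against 11.97). Their part in these values was not tested.

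ITGB1BP2 (melusin), a muscle protein that binds the cytoplasmic tail of integrin β1, was the only gene of the fibre surface set that was lower in both bears, joined by ITGA6 after median-ratio scaling. It had 12.7 and 9.45 RPKM in the active and hibernating subadult and 7.90 and 6.12 in the adult. All 4 of its transcripts were lower in both bears, by -0.41 to -0.08 in the subadult and by -0.34 to -0.15 in the adult. The libraries of the states overlapped, because the hibernating subadult was above the active adult, and the score was 0.535.

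All 3 measured genes for dystroglycan and the sarcoglycans had both hibernating libraries above both active ones, as 35.8% of all genes did. α-Sarcoglycan (SGCA), a transmembrane protein specific to striated muscle, stood at 41.7 RPKM in the active and 96.4 in the hibernating subadult, and at 63.1 in the active and 82.3 in the hibernating adult. Its level was 2.31-fold higher in the hibernating subadult and 1.30-fold higher in the hibernating adult, with a mean log2 change of 0.79 ± 0.28 (SE), a score of 0.817 and an adjusted p of 0.549. DAG1, whose product is cut into α- and β-dystroglycan, stood at 34.0 and 48.5 RPKM in the subadult and 37.9 and 47.4 in the adult, with a mean log2 change of 0.41 ± 0.21 (SE) and a score of 0.593. δ-Sarcoglycan (SGCD) differed least, with 14.6 and 16.03 in the subadult and 15.5 and 17.4 in the adult, and its mean log2 change of 0.14 became -0.02 after median-ratio scaling.

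Utrophin (UTRN), a dystrophin homologue of the neuromuscular junction, had 2.42 and 2.53 RPKM in the active and hibernating subadult and 1.495 and 2.22 in the adult. Over the fibre surface set of integrins, melusin and the dystrophin complex, 8 of 15 genes (53.3%) were higher in both bears and 1 (6.67%) was lower. Of all genes 48.7% and 16.1% were. Their levels summed to 177 RPKM (active) and 271 RPKM (hibernating) for the subadult, and to 191 and 236 RPKM for the adult. Most of the difference in each bear came from SGCA, ITGA7 and DAG1.

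Cell markers were set beside the matrix genes, because most of these are made outside the fibre. The fibroblast and connective tissue markers (5 of 12 measured) summed to 358 RPKM in the active subadult and 167 to 285 in the other libraries. Collagen genes in this list differed in direction: COL1A1 had 193 RPKM in the active subadult and 6.79 to 11.0 elsewhere, and COL5A1 20.8 against 3.57 to 6.07, while COL3A1 had 116 and 136 RPKM in the active and 254 and 210 in the hibernating subadult and adult. COL5A2 was lower in hibernation in both bears, at 25.1 and 11.1 RPKM in the active and hibernating subadult and 17.3 and 12.1 in the adult. COL1A2, at lower levels, was higher in both, at 2.59 and 3.995 in the subadult and 3.15 and 3.59 in the adult. Each collagen gene here is given by its standing transcript. This was 1 of 9 for COL1A1 (4481 bases), 1 of 8 for COL3A1 (618 bases) and 1 of 2 for COL1A2 (925 bases). COL5A1 and COL5A2 had 2 and 7 transcripts. Differences between these genes can therefore not be told apart from differences between transcripts. DCN, LUM and PDGFRA of this list were not analysed here.

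The fat cell markers (5 of 11 measured) were also highest in the active subadult, at 521 RPKM against 126 to 160. The lipid synthesis genes SCD (189 RPKM against 2.79 to 10.1) and FASN (113 against 2.96 to 5.79) and the lipase LPL (120 against 18.8 to 63.4) were all called lower, although LPL was level in the adult, at 18.8 active and 19.8 hibernating. PLIN4 was highest in the hibernating adult, at 105 RPKM against 62.3 to 76.8, and CD36 lay at 25.3 to 27.5 in all but the active adult, at 14.0. ADIPOQ, PLIN1 and LEP were not analysed. Endothelial markers (4 of 11) summed to 33.1 RPKM in the active subadult and 19.8 to 29.5 elsewhere. PECAM1 (12.97 RPKM) and FLT1 (9.31) were highest in the active subadult, but TIE1 (10.6) and EGFL7 (2.535) in the hibernating subadult. Only S100B was measured of 7 Schwann cell markers, at 13.1 RPKM in the active subadult and 1.19 to 3.44 elsewhere, and of 8 tendon markers only FMOD, at 1.65 to 3.42 RPKM. CD68 stood for the 12 blood and leukocyte markers, at 3.28 and 3.94 in the active and 6.41 and 7.12 in the hibernating libraries. Satellite cell markers (2 of 7) summed to 10.0 and 11.7 in the active and 15.2 and 16.2 in the hibernating libraries. The part of these cell types in the levels of SPARC, ELN, FBN1, FN1 and HSPG2 was not tested.

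**Figure D4:**
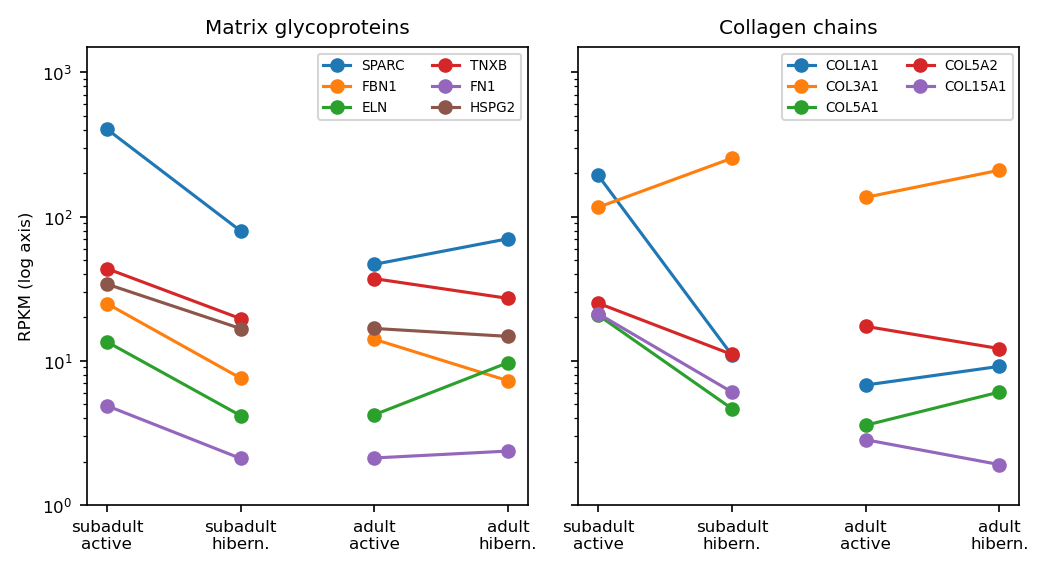
RPKM (log axis) of the 6 matrix genes that were at least 2-fold lower in the hibernating subadult (left) and of 5 collagen genes (right), with the active and hibernating library of each bear joined by a line. In the subadult all 6 matrix genes are lower in hibernation, SPARC at 79.5 against 404 RPKM, and COL1A1 is at 11.0 against 193, while in the adult FBN1, TNXB and HSPG2 are lower and SPARC, ELN and FN1 are not.

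Genes that work with the members were taken from lists by function. Of the basement membrane partners, 7 of 15 were measured, 3 higher and 2 lower in both bears. COL15A1, a collagen that anchors basement membranes to the interstitium, was called lower, at 21.2 and 6.07 RPKM in the active and hibernating subadult and 2.84 and 1.91 in the adult. Elastic fibre and microfibril partners numbered 6 of 19, of which 3 were higher and 0 lower in both bears. The collagen cross-linking enzyme LOXL2 was called higher, at 3.86 and 15.6 in the subadult and 2.60 and 3.60 in the adult. Its transcript has 508 bases, and the call rests mostly on the subadult (4.05-fold higher, against 1.38-fold in the adult).

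Focal adhesion adaptors, which tie integrins to actin, were the best covered list, with 17 of 28 measured. Of these 10 were higher and 1 lower in both bears (48.7% and 16.1% of all genes), and 1 was called in each direction. CSRP1 was called higher, at 27.4 and 29.6 RPKM in the subadult and 26.6 and 81.4 in the adult, so that the call rests on the hibernating adult library. FLNC, filamin C of the Z-disc and the sarcolemma, was called lower, at 179 and 136 in the subadult and 216 and 102 in the adult. These FLNC values are of a short transcript of 297 bases, 1 of 2 of the gene. Partners of the dystrophin complex (10 of 28 measured) were higher in both bears for 2 and lower for 4. SYNM, an intermediate filament protein that binds the complex, was called higher, at 1.36 and 4.67 in the subadult and 1.44 and 3.50 in the adult. No gene of these lists passed limma's test at an adjusted p of 0.05.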

How the data were processed

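Values came from the deposited table of RPKM. The authors assembled transcripts de novo from other libraries (Newbler 2.3 and SOAPdenovo), named them by BLAST against human proteins (Ensembl 66), aligned the single-end reads with SOAP2, allowing 2 mismatches, and deposited RPKM with transcript lengths. How reads that match several transcripts were shared is not given in the sources used here. Every deposited value is at least 1 RPKM, so transcripts under 1 in any library were not analysed here. RPKM times length was whole within 0.1 read for 94.4% to 97.8% of low values, which gave the depth.

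Members and gene lists were chosen with earlier results of these data known. Matching genes are named once, apart from items not reported here, which stay in the counts and sums; values in all libraries are given for called genes, changes of at least 1.5-fold in both bears or 2-fold in either, and the most abundant gene of each role. Further values were chosen after they were seen. limma 3.58.1 in R 4.3.3 (trended prior) compared log2(RPKM + 0.5), 2 against 2 libraries, adjusted (Benjamini-Hochberg) over 9093 transcripts. The score used 53228 within-state differences between bears. The libraries of a bear are from the same animal, so the bear pairs the samples (deviations correlated with Pearson r = 0.356 over 9093 transcripts); the block was an alternative. Each library is 1 sample per bear and state, and the spread within a state is between 2 animals. The SE given with a mean change is that of the limma fit without the block, drawn toward the trended prior over 9093 transcripts. It is therefore not the spread of the changes of the 2 bears and can be smaller. Python 3.11.15, pandas 2.3.3 and matplotlib 3.10.9 were used. Paired-end and pooled libraries have no values of their own here.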

Additional observations from a re-analysis of the deposited data

How the results depend on the processing

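Alternatives were pseudocounts of 0.1 and 1, median-ratio scaling, a mean RPKM of at least 5, a score of 0.9, a prior without trend, the replicate block, the mean over the transcripts of a gene, and leaving out either bear. The score takes RPKM with no pseudocount and needs both bears, so neither choice tests it. The median log2 change of the 28 genes was 0.17, and 0.011 with median-ratio scaling (0.15 and 0.00 over all genes). With a mean RPKM of at least 5, 17 genes remained, and 5 instead of 11 were higher in both bears, while 5 were lower. Of all genes that passed this filter, 54.6% were higher and 13.9% lower in both bears. With either bear left out, the median ranged from 0.09 to 0.28, genes higher in the bear that remained from 15 to 19, and genes lower from 9 to 13. The replicate block gave 0 calls at an adjusted p of 0.05, as the fit without it did. A score of 0.9 left 4 of the 6 called transcripts.

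For the 12 genes with opposite directions, leaving out the bear with the larger change turns the sign by definition and is no test. Without the subadult SPARC went from -0.88 to 0.58, ELN from -0.24 to 1.11, FN1 from -0.46 to 0.13 and LAMA4 from -0.22 to 0.35. Without the adult SPARCL1 went from 0.23 to -0.34 and ITGB5 from 0.23 to -0.21. The mean over transcripts lowered ITGA7 from 1.17 to 0.46. Median-ratio scaling turned SGCD (-0.018), ITGA6 (-0.14) and ITGA2B (-0.078). The mean over transcripts also turned ITGA6 (-0.27) and ITGB7 (-0.0056). Each of these genes has 2 transcripts, and the one that does not stand for the gene changed by -0.55 (ITGA6) and -0.34 (ITGB7). Why the transcripts of a gene differ was not tested. The precision rests on 2 bears, and the lowest member values on 25 to 30 reads.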

Other observations

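Matrix proteases and their inhibitors, which were not described above, had their highest summed level in the hibernating adult. Of 19 listed genes 7 were measured, 1 higher and 2 lower in both bears, and none was called. The gelatinase MMP2 had 30.9 and 23.996 RPKM in the active and hibernating subadult and 19.2 and 59.8 in the adult, with a score of 0.795. MMP14, which activates pro-MMP2 at the cell surface, had 6.61 and 6.70 in the subadult and 3.58 and 10.5 in the adult, and the inhibitor TIMP4 had 10.7 and 5.54 in the subadult and 11.3 and 18.9 in the adult. The summed level of the 7 genes was 100.4 RPKM in the hibernating adult and 43.7 to 63.2 in the other libraries. Of 21 matrix proteoglycans and secreted proteins 3 were measured. ECM1 was called higher, at 12.7 and 20.9 RPKM in the subadult and 20.3 and 35.8 in the adult, and ASPN had 7.03 and 3.10 in the subadult and 2.58 and 2.59 in the adult.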
